A study of Mus musculus with 3 samples.

Results

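The 10 genes described here are regulators of the somite and of the lineages that leave it, En1, Pax3, Pax7, Pax1, Tcf15, Dmrt2, Sim1, Myf5, Myod1 and Myog. They were chosen by name, and every probe carrying one of those symbols was kept, which gave 11 of the 25697 probes and 10 of the 17849 genes on the array. Myog had a pair of probes and each of the other 9 genes had a single probe. RNA came from dorsal dermal fibroblast progenitors of mouse embryos of the genotype Engrailed1Cre/+;R26R/+ at embryonic day 12.5, isolated by laser capture. All embryos carried Cre at an Engrailed1 allele, which is active wherever that locus is, and the Rosa26 Cre reporter (R26R). RNA from 5 embryos was combined into 1 pool, and the 3 Illumina MouseRef-8 bead arrays were technical replicates of it, so every SD below is technical error between arrays. The series held 1 group without a control group, and no contrast between conditions was possible. In a pool of captured tissue, fewer cells of a type and less RNA per cell cannot be told apart.

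Somites are blocks of mesoderm beside the neural tube. Their dorsal part, the dermomyotome, gives rise to skeletal muscle and to the dermis of the back, and their ventral part, the sclerotome, to the vertebrae and ribs. Pax3 and Pax7 mark the dermomyotome, Pax1 the sclerotome, and En1 the central dermomyotome from which back dermis and some back muscle arise. Myf5, Myod1 and Myog encode basic helix-loop-helix factors that commit cells to muscle and then drive their differentiation.

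Of the 10 genes, 3 were detected, namely Myog, Tcf15 and En1. Detection required a detection p, the rank of a probe's signal among the array's negative controls, of under 0.01 on each of the 3 arrays, and any 1 probe sufficed for a gene. Across the array 43.6% of all genes met that rule, so the members' share of 30% was not above the background. Under a detection p of 0.05 the members gave 5 (48.5% of all genes), under 0.001 they gave 1 (39.7%), with at least 2 arrays 3 (47.6%), with at least 1 array 5 (51.7%) and with every probe required 2 (32.0%). Without array 1, 2 or 3 the count was 3 each time, beside 43.7%, 47.0% and 44.2% of all genes. Of the 11 probes 3 were detected, beside 37.7% of all probes. That count was 6 under a detection p of 0.05 (42.6% of all probes), 1 under 0.001 (33.9%), 4 with at least 2 arrays (41.8%) and 6 with at least 1 array (46.0%). It was 3 without array 1 (37.8%), 4 without array 2 (41.2%) and 3 without array 3 (38.3%). Another 2 genes, Dmrt2 and Myod1, passed on a single array each, and 5 genes (Pax3, Pax7, Pax1, Sim1 and Myf5) passed on none. Signals are the authors' normalized intensities in arbitrary units, in which the background lies near 0 and values can be negative. The lowest normalized signal that reached a detection p under 0.01 was 23.1 on array 1, 44.3 on array 2 and 31.2 on array 3. In the authors' normalization array 2 was multiplied by 2.07 and arrays 1 and 3 by 0.672 and 0.699, and each member is read here against the limit of the same array. A gene below the limit was not detectable here and was not shown to be absent.

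**Figure D1:**
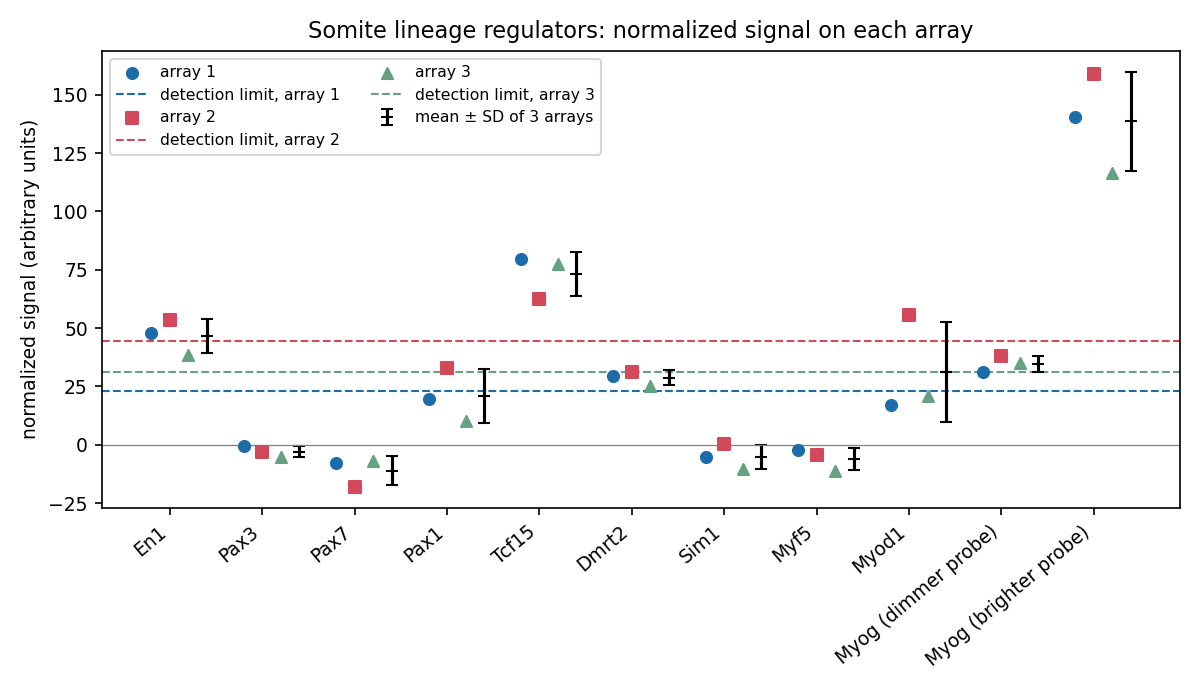
Normalized signal (arbitrary units, linear axis) of each of the 11 probes on arrays 1, 2 and 3, with the mean ± SD over the 3 arrays at the right of each set and dashed lines at each array's detection limit (23.1, 44.3 and 31.2). The brighter Myog probe, Tcf15 and En1 lie above the line of their own array on all 3 arrays, and Pax3, Pax7, Sim1 and Myf5 lie near or below 0.

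En1 encodes a homeodomain transcription repressor, and its locus drove the Cre of these embryos. Its normalized signal was 47.9 on array 1, 53.3 on array 2 and 38.6 on array 3, a mean of 46.6 ± 7.46 (SD, n = 3 arrays). All 3 values lay above the limit of their array, by 24.8, 8.99 and 7.35 units. The detection p was 0, 0.00501 and 0.00251 in the same order, so the margin was narrow on arrays 2 and 3, and at a detection p under 0.001 En1 passed on array 1 only. The sources used here do not say whether the Cre insertion alters the En1 transcript or where in it the probe lies, so the signal cannot be assigned to either allele. En2, the paralogue of En1, was not detected, at 1.37 ± 2.21 (SD, n = 3 arrays). Among all 3031 probes with a mean normalized signal between 20 and 60, the median SD over the arrays was 9.08, and the SD of En1 was below it.

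The 250 bases upstream of the En1 start (GRCm38.p6, chr1:120602237-120602486, plus strand, RefSeq) are shown because En1 is the gene of the Cre allele, and the same stretch of Myog because it was the member read farthest above the detection limit. Capitals mark the E-box, the core motif of basic helix-loop-helix factors, searched as CANNTG, which reads the same on both strands.
En1: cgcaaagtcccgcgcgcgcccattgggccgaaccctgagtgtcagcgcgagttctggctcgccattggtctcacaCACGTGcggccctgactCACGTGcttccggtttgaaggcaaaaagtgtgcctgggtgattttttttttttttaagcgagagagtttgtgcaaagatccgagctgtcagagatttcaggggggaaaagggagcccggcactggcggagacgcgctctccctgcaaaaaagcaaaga
Myog: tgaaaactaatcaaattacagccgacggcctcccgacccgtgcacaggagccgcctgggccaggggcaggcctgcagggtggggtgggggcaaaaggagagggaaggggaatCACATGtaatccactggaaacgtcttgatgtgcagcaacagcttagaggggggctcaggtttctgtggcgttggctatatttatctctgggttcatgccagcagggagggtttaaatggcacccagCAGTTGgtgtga
The En1 stretch held 2 E-boxes, both with the letters CACGTG, beginning 175 and 158 bases before the start. The Myog stretch (chr1:134289754-134290003, plus strand) held 2 as well, CACATG at 138 bases and CAGTTG at 12 bases before the start, and no 2 E-boxes overlapped in either. At least 1 E-box occurred in 66.2% of the 32851 upstream stretches of this length in the table and at least 2 in 31.8%, so their presence does not set these genes apart. The table held such a stretch for 7 of the 10 members. Sim1 had 2 E-boxes, both CAGATG, and Pax7, Pax1, Dmrt2 and Myf5 had none in this window.

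Tcf15 encodes paraxis, a basic helix-loop-helix factor needed for the epithelial form of the somite. Its normalized signal was 79.4, 62.2 and 77.5 on arrays 1, 2 and 3, a mean of 73.1 ± 9.43 (SD, n = 3 arrays). Arrays 1 and 3 lay 56.4 and 46.3 units above their limits and array 2 lay 17.9 units above its own. The detection p was 0 on arrays 1 and 3 and 0.00125 on array 2. Tcf15 was therefore read on every array, with array 2 lowest both in signal and in margin. The array annotation gave no chromosome for this probe, unlike those of the other members.

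The paired-box genes gave no detected member. Pax3, needed for the dermomyotome and for migrating muscle precursors, read -0.562, -3.35 and -5.26 on arrays 1, 2 and 3, with detection p of 0.387, 0.585 and 0.598. Pax7, which later marks muscle progenitors, read -8.05, -18.0 and -7.20, with detection p of 0.802, 0.902 and 0.711. Both lay far inside the range of the negative controls on every array. Pax1, a sclerotome factor, came closer, at 19.7, 33.0 and 9.95 units, below the limits by 3.36, 11.3 and 21.3 units. Its detection p was 0.0213, 0.0238 and 0.0827, so it passed 0.05 on arrays 1 and 2 and 0.01 on none. The means were -3.06 ± 2.36 for Pax3, -11.1 ± 6.03 for Pax7 and 20.9 ± 11.6 for Pax1 (SD, n = 3 arrays). The other paired-box genes measured gave 0 of 6, among them Pax2 (-4.05 ± 4.62), Pax4 (0.579 ± 10.2), Pax5 (0.415 ± 6.76) and Pax6 (-4.95 ± 3.71), beside 43.6% of all genes. That count was also 0 at a detection p under 0.05 (48.5% of all genes) and with detection on at least 1 array (51.7%). Pax9 is 1 of these 6 and is also counted among the further somite regulators below.

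Dmrt2 and Sim1 encode further factors of the dermomyotome. Dmrt2, which acts in the early dermomyotome and upstream of Myf5, read 29.6, 31.4 and 25.2 on arrays 1, 2 and 3, a mean of 28.7 ± 3.17 (SD, n = 3 arrays). Its SD was among the smaller ones of the members, yet the value passed the limit on array 1 only, by 6.48 units, and fell short by 13.0 and 6.04 units on arrays 2 and 3. The detection p was 0.00125, 0.0288 and 0.0150. Sim1, known from the lateral dermomyotome, read -5.34, 0.111 and -10.3, with detection p of 0.648, 0.489 and 0.841. Sim1 thus lay at background on all 3 arrays, while Dmrt2 lay at the edge of detection.

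**Figure D2:**
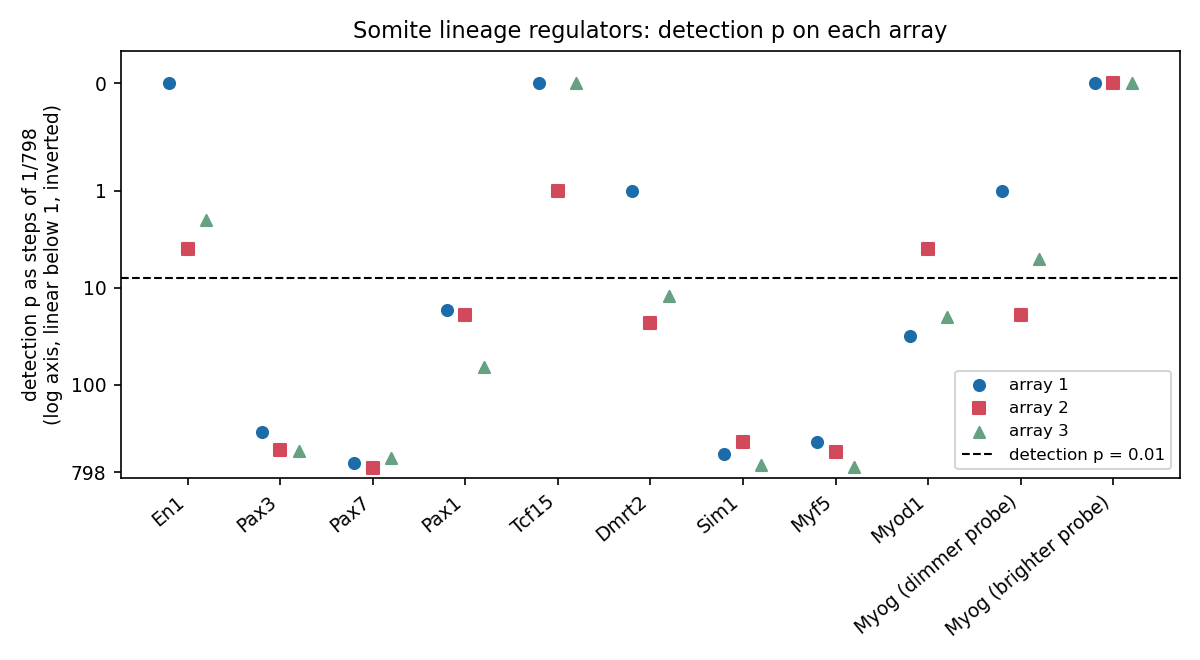
Detection p of each of the 11 probes on arrays 1, 2 and 3, plotted as multiples of 1/798, the step in which the deposited p-values come (log axis, linear below 1, inverted so that clearer detection is higher). The dashed line marks the detection threshold of 0.01, and the brighter Myog probe, Tcf15 and En1 have all 3 points above it, and Dmrt2, Myod1 and the dimmer Myog probe have points on both sides.

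The myogenic factors differed among themselves. Myf5, the earliest of them in the mouse embryo, read -2.33, -4.42 and -11.3 on arrays 1, 2 and 3, with detection p of 0.490, 0.618 and 0.877, at background throughout. Myf6, which lies next to Myf5 on chromosome 10 and encodes the remaining myogenic factor, was not detected either, at 4.15 ± 5.24 (SD, n = 3 arrays). Myog, which encodes myogenin, the factor of muscle differentiation, was read by its brighter probe at 140, 159 and 116, a mean of 139 ± 21.4 (SD, n = 3 arrays). These values lay 117, 115 and 85.2 units above the limits, and the detection p was 0 on all 3 arrays. Myog was the only member still detected at a detection p under 0.001.

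The dimmer Myog probe read 31.1, 37.9 and 35.0 on arrays 1, 2 and 3. It passed on arrays 1 and 3 with detection p of 0.00125 and 0.00627 and missed on array 2 with 0.0238, so the probes of this gene had different states. Of the 1561 genes on the array with exactly 2 probes and at least 1 of them detected, 55.9% likewise had 1 of 2 detected. The sequences of the probes were not analysed here, so which part of the transcript each reads is not stated.

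Myod1, which commits cells to muscle, depended on the array. Its normalized signal was 17.0 on array 1, 55.8 on array 2 and 20.7 on array 3, a mean of 31.2 ± 21.4 (SD, n = 3 arrays). Array 2 lay 11.4 units above its limit, with a detection p of 0.00501, and arrays 1 and 3 lay 6.09 and 10.5 units below theirs, with 0.0388 and 0.0251. Before normalization the signals were 110.4, 100.4 and 121, against raw limits of 119, 94.9 and 136, so array 2 had the lowest raw signal and the highest normalized one. Among the 3031 probes with a mean normalized signal between 20 and 60, an SD of 21.5 was the 95th percentile, and array 2 was the highest of the 3 in 48.8% of them. The spread of Myod1 was therefore near the upper end for probes of its brightness. Without array 2 its mean would be below both remaining limits, and no level of Myod1 is read from these arrays.

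Other genes that act with the members were read in part. Of 24 further regulators of somite compartments 8 were detected, 33.3% beside 43.6% of all genes. Among them were the homeobox genes Meox1 (128 ± 16.3) and Meox2 (196 ± 9.22), which act in somite formation, the forkhead genes Foxc1 (151 ± 8.37) and Foxc2 (203 ± 9.39) of paraxial mesoderm, Tbx18 (99.3 ± 19.3), known from the anterior somite, and the transcriptional coactivator gene Eya2 (38.3 ± 9.19, by 1 of 2 probes). The remaining 2 were Scx and Zic1. The sclerotome gene Pax9 (7.95 ± 4.89), Foxd2 (7.01 ± 6.71), and the genes Tbx6 (9.08 ± 8.42) and Mesp1 (-2.0 ± 1.79) of presomitic mesoderm were not detected (all SD, n = 3 arrays).

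**Figure D3:**
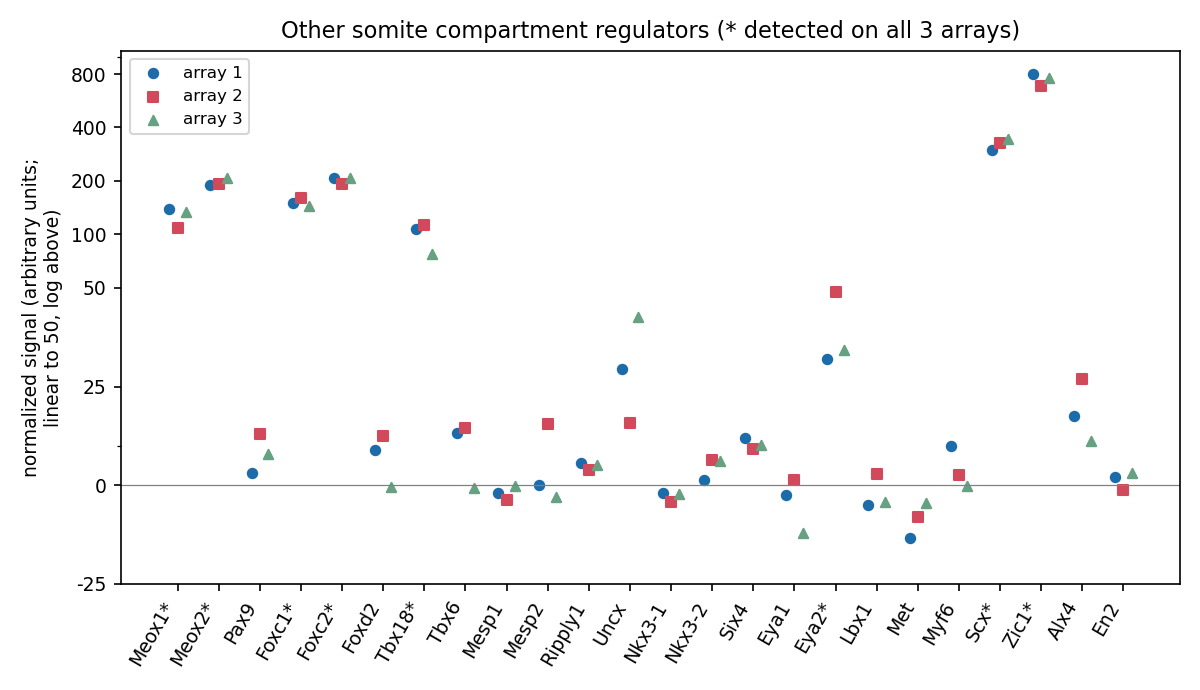
Normalized signal (arbitrary units, linear to 50 and logarithmic above) of the brightest probe of 24 further regulators of somite compartments on arrays 1, 2 and 3. The 8 genes with an asterisk were detected on all 3 arrays, Meox1, Meox2, Foxc1, Foxc2, Tbx18, Eya2, Scx and Zic1, and most of the other 16 lie near 0.

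Signals that pattern the somite were detected at 9 of 18, a share of 50% that lies near the 43.6% of all genes. They included Wnt ligands of the neural tube and surface ectoderm, Wnt3a (61.1 ± 3.46), Wnt4 (392 ± 38.3), Wnt6 (122 ± 18.8) and Wnt7a (265 ± 26.5), as well as Wnt11 (50.2 ± 7.44) and Bmp4 (3080 ± 87.9). Wnt7a is a gene that En1 represses in ventral limb ectoderm of the mouse, and here both were detected. A pool does not show whether the same cells held both transcripts, and repression was not tested. The ligand genes Wnt1 (-8.13 ± 2.69) and Shh (10.8 ± 2.25) and the Hedgehog effector gene Gli3 (4.53 ± 3.53) were not detected. The antagonist gene Nog (24.0 ± 17.8) was not detected either, but passed on array 1 (all SD, n = 3 arrays).

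Partners and differentiation genes of the myogenic factors were counted in the same way. Dimerization partners, their Id inhibitors and the Mef2 genes gave 7 of 9, beside 43.6% of all genes. They were the E-protein genes Tcf4 (6543 ± 364) and Tcf12 (412 ± 10.3, by 2 of 3 probes), the inhibitor genes Id1 (1353 ± 109.8), Id2 (1101 ± 43.0) and Id3 (643 ± 76.0), and Mef2a (63.7 ± 5.13, by 2 of 3 probes) and Mef2c. Mef2d (8.97 ± 3.33) was not detected, nor was the probe named Tcf3 (8.15 ± 5.32). The file gives that probe no chromosome or definition and uses the symbol for Tcf7l1 as well, so it may not read the E-protein gene. Tcf4 and the Id genes have roles in many cell types besides muscle. Muscle differentiation genes gave 16 of 20, beside 43.6% of all genes. Among them were the sarcomeric actin genes Actc1 (3236 ± 151) and Acta1 (874 ± 38.0), and Des (257 ± 44.9), which encodes desmin. The acetylcholine receptor genes Chrna1 (137 ± 16.0, by 2 of 3 probes), Chrnb1 (109 ± 52.6, by 1 of 2 probes) and Chrng (101 ± 12.2) were also among them. Chrnb1 differed between arrays, at 140.2, 48.6 and 139 on arrays 1, 2 and 3. Chrnd (-7.25 ± 6.02), Ckm (4.97 ± 13.5) and the fusion gene Tmem8c (0.704 ± 1.95) were not detected, and Tnnt3 (51.9 ± 11.1) passed on 2 arrays (all SD, n = 3 arrays).

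**Figure D4:**
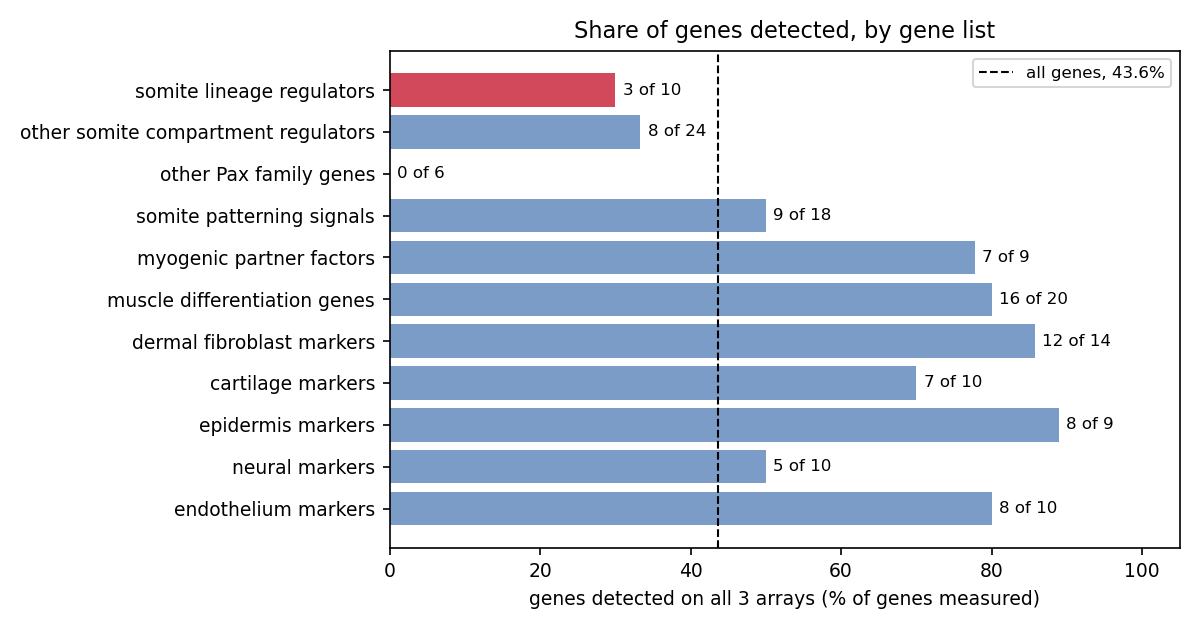
Share of measured genes detected on all 3 arrays (%, bars from 0) for the 10 somite lineage regulators (red) and 10 other gene lists (blue), with counts beside the bars and a dashed line at the 43.6% of all genes. The somite lineage regulators stand at 3 of 10 and the muscle differentiation genes at 16 of 20.

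The labelled tissue was checked against its markers. Dermal fibroblast markers were detected at 12 of 14, with Twist2 at 2827 ± 181 and Pdgfra at 4106 ± 158. Col1a1 (209 ± 14.2) and Lef1 (66.4 ± 16.6, by 1 of 2 probes) were dimmer, and Tbx15 and Dpt were not detected. Among markers of other cell types, 7 of 10 were detected for cartilage, 8 of 9 for epidermis and 8 of 10 for endothelium, beside 43.6% of all genes. The muscle differentiation genes counted above gave 16 of 20, beside the same share. The brightest gene of each of these lists was Myl4 for muscle (7575 ± 753) and Matn4 for cartilage (4464 ± 675). It was Egfl7 for endothelium (1809 ± 60.4, by 2 of 3 probes) and Krt14 for epidermis (1313 ± 58.6). Other genes were dimmer, such as Krt18 of epidermis (53.8 ± 4.87) (all SD, n = 3 arrays). Sox6, Col9a1 and Col11a1 of cartilage, Sfn of epidermis, and Kdr and Tie1 of endothelium were not detected. Neither these counts nor these signals set the labelled tissue apart from those cell types. Neural markers gave 5 of 10, which is near the 43.6% of all genes. Since En1 is also expressed in neurons and ectoderm of the mouse embryo, Pax1 in sclerotome and Myog in muscle, the part of those cells in the members' signals was not tested. With 3 technical arrays of 1 pool, no pattern across conditions exists by which other genes could be ranked for likeness to these.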

How the data were processed

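RNA of laser-captured dorsal dermal fibroblast progenitors (1 pool of 5 embryos) was measured on 3 Illumina MouseRef-8 v2.0 arrays. Per the file headers, the authors deposited a mean bead intensity and a detection p-value for each of 25697 probes and each array, non-normalized and normalized. The normalization method is not given in the sources used here. Each deposited normalized intensity was a straight line of the non-normalized one, with slopes of 0.672, 2.07 and 0.699. The deposited detection p-values were multiples of 1/798, the form of a rank among that many negative controls. The series value table held the same numbers.

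Symbols were updated through RefSeq (GRCm38.p6), which left 17849 genes. The value of a list gene is that of its brightest probe. A probe named Tcf3 but listed on chromosome 6, with Tcf7l1 among its synonyms, was assigned to Tcf7l1, since Tcf3 lies on chromosome 10. Promoter sequences came from RefSeq, and list genes without a probe were not analysed here. A gene of the somite regulator list is not reported here and was left out of its count.

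With 1 group there was no test. Lists were counted and set beside all genes. The code that makes the detection calls was run on simulated data, which checks the counting and not the accuracy of detection. Members and lists were chosen with earlier results of these data known. The rule for names takes all members, and of each other list the first 6 detected and the first 4 not detected genes in list order, or all where there were fewer. Marker lists, and the muscle genes where they serve as markers, are given by counts with examples. En2 and Myf6 were named for their relation to a member, and Scx, Zic1 and Mef2c to complete a count. Alternatives were other thresholds and array rules, every probe required, leaving out an array, and quantile and neqc normalization (limma 3.58.1 in R 4.3.3). The number of arrays limits the precision, which covers technical error only.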

Additional observations from a re-analysis of the deposited data

How the results depend on the processing

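The number of members detected, 3 of 10, was 5 at a detection p under 0.05 (48.5% of all genes) and 5 with detection on at least 1 array (51.7%), in both cases by Dmrt2 and Myod1. It was 1, Myog, at a detection p under 0.001 (39.7% of all genes). It was 3 with at least 2 arrays (47.6% of all genes) and 2, En1 and Tcf15, with all probes of a gene required (32.0%). The number of member probes detected, 3 of 11, was 6 at under 0.05 (42.6% of all probes), 1 at under 0.001 (33.9%), 6 with at least 1 array (46.0%) and 4 with at least 2 (41.8%).

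Leaving out each array in turn gave 3 members in every case and 3 to 4 member probes. It gave 8 to 9 of 24 for the further somite regulators and 0 of 6 for the other Pax genes. The patterning signals gave 9 to 10 of 18, the myogenic partners 7 of 9 and the muscle genes 16 to 17 of 20. Beside these stood 43.7%, 47.0% and 44.2% of all genes without array 1, 2 and 3. The higher counts were those without array 2, where the share of all genes was also highest. Across the other alternatives the counts of those 5 lists stayed within 1.5 times their main values. The mean signals of all 11 probes took other values on the 3 other scales (non-normalized, quantile and neqc) by construction, as the units differ. On the log2 scale of neqc, Myod1 read 5.26, 6.31 and 5.40 on arrays 1, 2 and 3, again highest on array 2. On arrays 2 and 3 the signal of En1 lay 8.99 and 7.35 units above the limit of detection, and those of Dmrt2 and Myod1 lay on both sides of it. No paired analysis was possible because the series holds 1 group.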
